A study of Mus musculus with 20 samples.

Results

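Expression of 31 cholesterol and fatty acid synthesis genes was examined in mouse colonic organoids ("colonoids") with and without the TNF receptor TNFR2. The members were chosen by name as genes of lipid synthesis driven by the SREBP transcription factors, with earlier results of these data known. All 31 were found among the 35240 gene symbols of the transcript table and passed the filter on low values that 13539 genes passed. Colonoids were grown in Matrigel from colonic crypts of wildtype (WT) mice or of Tnfr2-/- mice, passaged 5 times, filtered and reseeded. They were collected on 5 days after passage (days post-passage, DPP), from 1 DPP to 7 DPP without 4 and 6 DPP. The 10 groups of genotype and day held 2 libraries each, from 2 mice per genotype that were followed through all 5 days, giving 20 libraries. The Tnfr2-/- mice are whole-body knockouts of the receptor, and no treatment was added in either genotype. The study describes these cultures as passaged without dissociation to single cells, and names C57BL/6 as its wildtype strain. It gives the age and both sexes of the mice for its colonic cultures in general, while the labels of these libraries carry neither.

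Cholesterol is built from acetyl-CoA through mevalonate and farnesyl diphosphate to squalene, which is closed into lanosterol and trimmed to cholesterol. Fatty acids are built from the same acetyl-CoA by way of malonyl-CoA and are then lengthened and desaturated. SREBP2, encoded by Srebf2, is known mainly for driving the cholesterol genes, and SREBP1, encoded by Srebf1, for driving the fatty acid genes. Both are held in the endoplasmic reticulum by INSIG proteins when sterols are plentiful and are cut free when sterols are scarce. A dividing epithelium needs both products for new membrane. The members were read in 4 role groups, comprising 7 genes of the mevalonate steps, 11 genes from squalene to cholesterol, 4 regulators or sterol transporters and 9 genes of fatty acid supply and synthesis.

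The promoters of these genes are shown first because SREBP is known to act beside the factors NF-Y and Sp1, whose short sites can be read directly. RefSeq promoter windows of GRCm38.p6, running from 250 bases before the start of transcription to 50 bases after it, were matched for 25 of the 31 members. Sqle, Fdps, Fdft1, Stard4, Scd1 and Scd2 had no match. 1 member of each role group is printed below, 5′ to 3′ on the strand of the gene, from base 250 to base 51 before the start. Capitals mark matches on either strand to TCACNCCAC (the core of a sterol response element), CCAAT (NF-Y), GGGCGG (Sp1) or CACGTG (an E-box).
Hmgcs1: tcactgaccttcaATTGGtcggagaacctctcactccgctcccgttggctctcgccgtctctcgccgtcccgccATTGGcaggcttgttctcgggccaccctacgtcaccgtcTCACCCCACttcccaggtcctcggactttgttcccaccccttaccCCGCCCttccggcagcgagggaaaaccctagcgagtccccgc
Cyp51: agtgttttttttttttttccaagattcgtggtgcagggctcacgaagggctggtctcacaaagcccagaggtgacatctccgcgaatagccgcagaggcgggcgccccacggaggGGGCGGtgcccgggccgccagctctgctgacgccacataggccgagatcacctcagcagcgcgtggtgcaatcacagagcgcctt
Insig1: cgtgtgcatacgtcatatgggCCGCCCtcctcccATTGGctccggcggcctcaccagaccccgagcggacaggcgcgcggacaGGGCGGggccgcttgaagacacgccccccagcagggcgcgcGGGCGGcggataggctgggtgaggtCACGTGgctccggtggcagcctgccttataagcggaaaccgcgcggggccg
Fasn: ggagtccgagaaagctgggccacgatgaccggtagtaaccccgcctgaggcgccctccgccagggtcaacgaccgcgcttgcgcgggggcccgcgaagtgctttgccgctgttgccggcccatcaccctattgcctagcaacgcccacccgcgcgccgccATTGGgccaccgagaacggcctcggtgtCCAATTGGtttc
The Hmgcs1 stretch lies on the plus strand at chr13:119690101-119690300 and the Insig1 stretch on the plus strand at chr5:28071162-28071361. The Cyp51 stretch lies on the minus strand at chr5:4104748-4104947 and the Fasn stretch on the minus strand at chr11:120824598-120824797. All 4 stretches lie upstream of the annotated start of their own gene. In the Fasn stretch a pair of CCAAT matches on opposite strands overlap.

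Some genes had several windows, and a gene counted as holding a motif if any of its windows did. CCAAT was present for 21 of the 25 members, or 84%. It was present for 43.1% of the 9998 tested genes that had a window and 41.1% of all 27025 genes with a window. GGGCGG was present in 20 of 25, or 80%, against 68.6% of tested genes and 38.2% of all genes. 19 members held both, Me1 in different windows, and the share of other genes holding both was not computed. CACGTG was found for 4 members (Dhcr7, Hsd17b7, Insig1 and Sc5d), or 16%, against 11.6% of tested genes. TCACNCCAC was found in the Hmgcs1 window alone among the members, or 4%, against 1.41% of tested genes. These are matches of letters in promoter windows and describe no binding.

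The deposited values were read as TPM (transcript abundance corrected for transcript length and scaled to a common total) divided by a size factor for each library. No header states this unit, which was inferred from the tools named and from library sums near those of TPM, and levels are compared between genes on that reading. They were summed over the transcripts of a gene, and differences are on the log2(value + 1) scale. Scd2, a stearoyl-CoA desaturase, had the highest top level, from 291 to 1107 over the 20 libraries. It was followed by Fdps (farnesyl diphosphate synthase, 238 to 479), Msmo1 (a sterol methyl oxidase, 237 to 430) and Hmgcs1 (the cytosolic HMG-CoA synthase, 158 to 369). Lpin1, the phosphatidate phosphatase, was lowest at 1.31 to 8.72, and Acss2, which makes acetyl-CoA from acetate, lay between 6.43 and 48.2. Reads that fit the paralogs Scd1 and Scd2 equally well were divided by the authors' quantification, so the split between them is uncertain.

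Library sums ranged from 900655 to 1111080, and 13007 to 13469 genes reached a value of 1 in each library. The depth of each library cannot be recovered from these values, and the study's methods give an approximate read number for its samples as a whole. Tnfrsf1b, the gene of TNFR2, was at 11.1 to 21.9 in WT and 2.71 to 11.5 in Tnfr2-/- libraries, with medians of 14.3 and 4.85. The gene was thus read in every knockout library and the ranges overlapped at their ends, and whether these reads lie in the deleted part of the gene cannot be told from values summed per gene. The epithelial markers Krt8 (3460 to 6610) and Epcam (362 to 1880) were high throughout, but the 8 fibroblast markers were also present in every library, with Col1a1 between 109 and 1120. The 5 adipocyte markers, whose cells also make fat, summed to between 0 and 3.92 in WT and between 3.00 and 9.87 in Tnfr2-/-, and Cfd and Lep were at 0 in all 20 libraries. The 5 leukocyte markers summed to at most 11.5. In such bulk libraries, fewer cells of a type and less RNA per cell cannot be told apart.

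**Figure D1:**
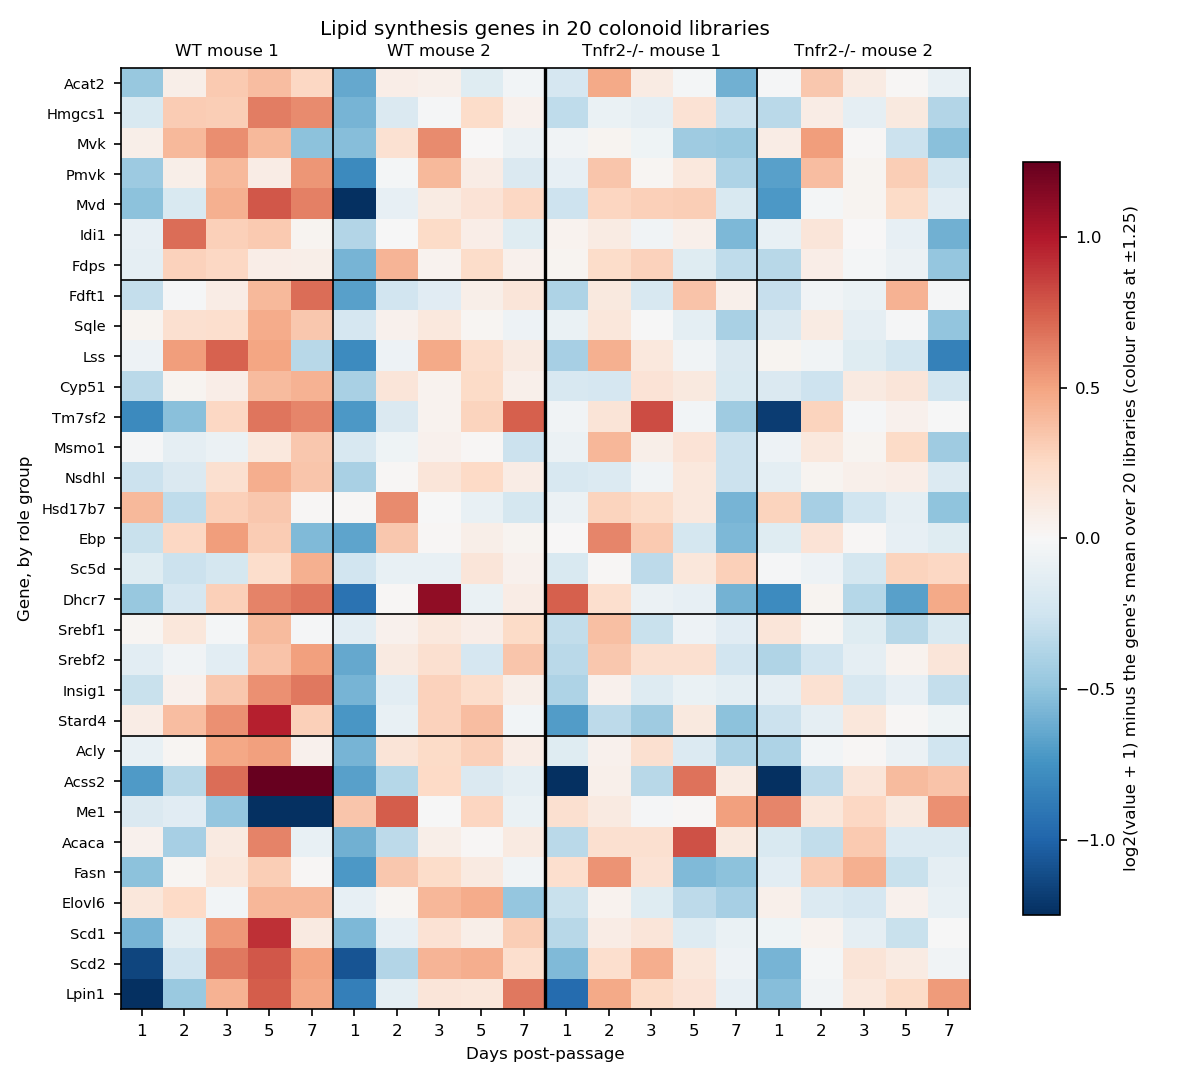
Each row is 1 of the 31 genes and each column 1 of the 20 libraries, ordered by mouse and then by days post-passage. Colour gives log2(value + 1) minus the gene's mean over all libraries, and lines separate the mice and the 4 role groups. Most rows are blue at 1 DPP, and the late WT columns, above all those of mouse 1, are redder than the late Tnfr2-/- columns, with Me1 the clearest opposite.

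Between 1 and 2 DPP most of the lipid synthesis genes had a positive mean change, although few were called. The median change over the 31 members was 0.37, against -0.01 over all genes tested, and 29 members had a positive mean change. 21 members were higher at 2 than at 1 DPP in all 4 mice, where 12.1% of all genes were, and no member was lower in all 4, where 11.7% of all genes were. In a limma fit across all genes, Scd2 was the 1 member called (adjusted p under 0.05), at a log2 difference of 0.73 (SE 0.106, adjusted p = 0.00614), and 0.761% of all genes were called. 19 of 31 members and 1676 of 13539 genes had an unadjusted p under 0.05. The count was 3 without the 1 DPP library of WT mouse 1. It was 2 without the 7 DPP library of either WT mouse, without the 1 DPP library of Tnfr2-/- mouse 1 or without all days of WT mouse 1. Without all days of either Tnfr2-/- mouse it was 0, with Scd2 at 0.68 and 0.79.

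Days of 1 mouse are paired, and with the mouse as a fixed block in limma 7 members were called, all higher, when 2.17% of all genes were called and 1.39% called higher. Besides Scd2 these were Mvd, the mevalonate diphosphate decarboxylase (0.72, adjusted p = 0.0259), Pmvk, the phosphomevalonate kinase (0.70, adjusted p = 0.0305), Fasn, the fatty acid synthase (0.60, adjusted p = 0.0435), Acat2, which joins acetyl-CoA units (0.58, adjusted p = 0.0281), Fdps (0.51, adjusted p = 0.0378) and Hmgcs1 (0.39, adjusted p = 0.021). Scd2 went from 291 to 546 in WT mouse 1, from 306 to 501.5 in WT mouse 2, from 438 to 745 in Tnfr2-/- mouse 1 and from 431 to 635 in Tnfr2-/- mouse 2, so that all 4 mice moved upwards.

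The later steps had smaller median changes (0.02, 0.03 and -0.22), and their difference between genotypes was not tested. From 2 to 3 DPP the members' median change reached 0.22 for WT mouse 1 and 0.17 for the other WT mouse, and it was -0.14 and -0.10 in the Tnfr2-/- mice. From 3 to 5 DPP it was 0.26 and -0.04 in WT and -0.03 and 0.02 in Tnfr2-/- mice, so that the genotypes overlapped. From 5 to 7 DPP it was below 0 in every mouse, at -0.12 and -0.11 in WT and -0.31 and -0.14 in Tnfr2-/-, and all 7 mevalonate genes had a negative mean change at that step. 12 members were lower at 7 than at 5 DPP in all 4 mice, where 9.61% of all genes were.

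None of these later steps gave a called member in limma without the block, and 0%, 2.18% and 0.0222% of all genes were called in turn. The members with an unadjusted p under 0.05 numbered 1, 4 and 5 of 31 in the same order, beside 1449, 2278 and 1548 of all 13539 genes, so that the members were not ahead of the other genes at the first and second of these steps. When the mouse was blocked, Scd2 rose again from 2 to 3 DPP (0.53, adjusted p = 0.0263, 0.31% of genes called). From 3 to 5 DPP the same fit called Sc5d, a sterol desaturase (0.41, adjusted p = 0.0385), and Fdft1, the squalene synthase (0.40, adjusted p = 0.025), with 5.13% of genes called. From 5 to 7 DPP it called no member among 0.798% of genes, with 9 members and 2081 genes at an unadjusted p under 0.05.

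**Figure D2:**
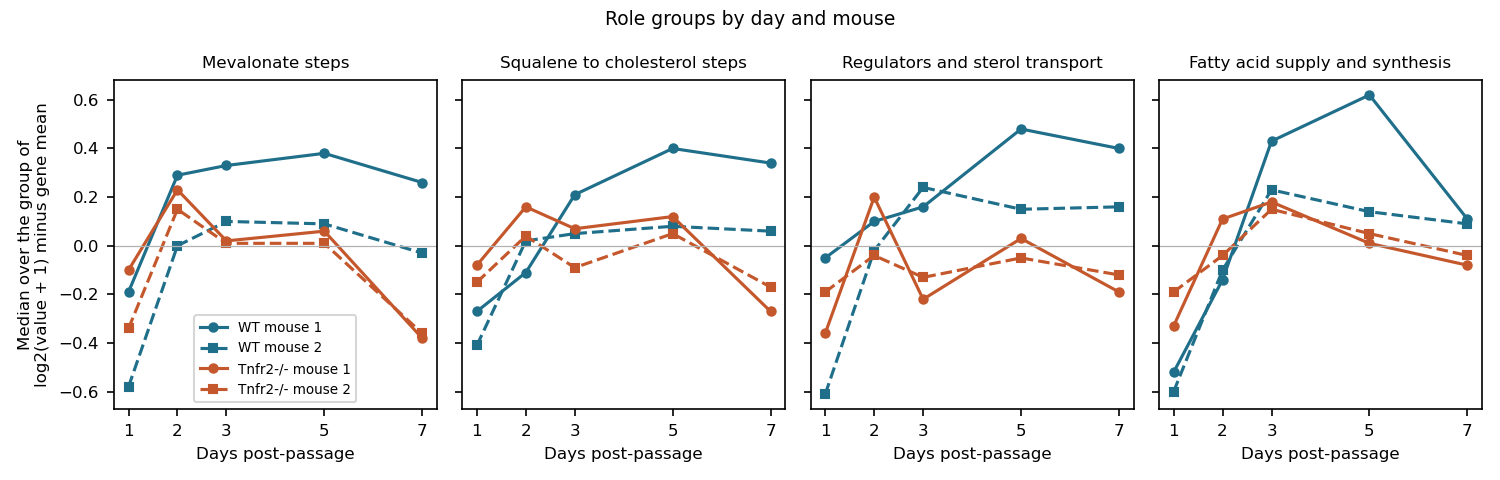
Each panel is 1 role group, the x axis gives days post-passage and the y axis the median over the group's genes of log2(value + 1) minus each gene's mean over 20 libraries. Blue lines are WT and orange lines Tnfr2-/-, with mouse 1 solid and mouse 2 dashed. All 4 mice start low in every panel, WT mouse 1 reaches 0.62 in the fatty acid group at 5 DPP, and both Tnfr2-/- mice end at -0.38 and -0.36 in the mevalonate group.

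In WT colonoids, 11 of the 31 members rose from the early days (1 to 3 DPP) to the late days (5 and 7 DPP) and none fell. The median over the members was 0.32, against 0.02 over all genes, of which 20.1% were called and 11.6% called higher. Among the mevalonate genes Mvd rose by 0.74 (SE 0.181, limma adjusted p = 0.0123) and Hmgcs1 by 0.44 (SE 0.137, adjusted p = 0.0395). From squalene to cholesterol, Tm7sf2, a sterol reductase, rose by 0.89 (SE 0.213, adjusted p = 0.011), Fdft1 by 0.54 (SE 0.124, adjusted p = 0.00828) and Sc5d by 0.40 (SE 0.0919, adjusted p = 0.00945). Nsdhl, a sterol dehydrogenase, rose by 0.37 (SE 0.0913, adjusted p = 0.0132), and Cyp51, the lanosterol demethylase, rose by 0.35.

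Among the regulators Insig1, which retains SREBP and is itself an SREBP target, rose by 0.43 (SE 0.123, adjusted p = 0.0252). In the fatty acid group Lpin1 rose by 0.87 (SE 0.208, adjusted p = 0.0107), Scd2 by 0.78 (SE 0.097, adjusted p = 0.000263) and Scd1 by 0.46 (SE 0.144, adjusted p = 0.04). The 20 members not called ranged from -0.75 for Me1, the cytosolic malic enzyme, to 0.83 for Acss2. With the mouse as a fixed block 13 members were called, the additions being Me1 as lower (adjusted p = 0.0129) and Acss2 as higher (adjusted p = 0.0333), among 24.9% of all genes. When libraries were rescaled to equal sums the split over all genes turned from 1571 higher and 1153 lower to 1275 higher and 1479 lower, while 9 members were called, all higher.

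The WT count leaned on mouse 1. It was 4 without its 5 DPP library and 5 without its 7 DPP library, and in fits without all days of that mouse it was 4, against 12 without all days of mouse 2. Without all days of either Tnfr2-/- mouse, whose libraries only share the estimate of spread, it was 2. 20 members were higher late than early in both WT mice taken singly, where 37.6% of all genes were.

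In Tnfr2-/- colonoids few of these genes were called higher in the late days. Fasn fell by 0.63 (SE 0.118, limma adjusted p = 0.0027) and Mvk, the mevalonate kinase, fell by 0.52 (SE 0.149, adjusted p = 0.0254), while Sc5d rose by 0.38 (SE 0.0919, adjusted p = 0.0115). The other 28 members were not called, the median over all 31 was -0.08, and 20.3% of all genes were called. With the mouse as a fixed block 8 members were called among 24.7% of genes. That fit added Idi1, the isopentenyl diphosphate isomerase (-0.33, adjusted p = 0.0235), Fdps (-0.30, adjusted p = 0.0483) and Sqle, the squalene epoxidase (-0.24, adjusted p = 0.0441) as lower. It added Acss2 (0.88, adjusted p = 0.0262) and Fdft1 (0.35, adjusted p = 0.0074) as higher.

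Equal library sums also gave 8 called members, 1 higher and 7 lower, and moved the split over all genes from 1411 higher and 1344 lower to 1111 higher and 1710 lower. The count was 1 without the 5 DPP library of mouse 2. It was 2 without the 5 or 7 DPP library of mouse 1 or the 2 or 3 DPP library of mouse 2. It was 5 without the 7 DPP library of either WT mouse and 8 without all days of either WT mouse. Without all days of either Tnfr2-/- mouse it was 0, with 3 and 5 members and 2185 and 2447 genes at an unadjusted p under 0.05. In both Tnfr2-/- mice taken singly, 8 members were higher late than early, where 38.6% of all genes were, and 13 were lower, where 34.4% of all genes were.

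**Figure D3:**
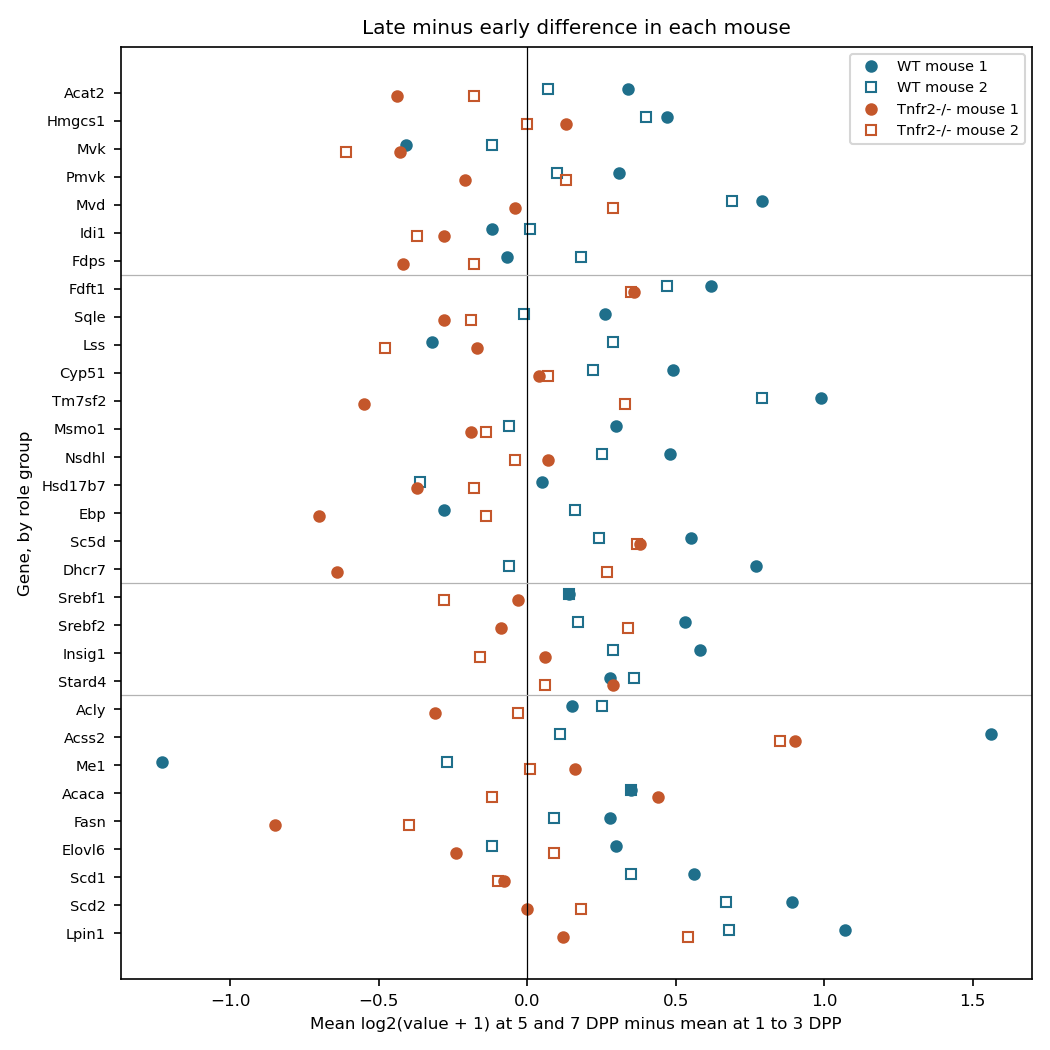
For each member the x axis gives mean log2(value + 1) at 5 and 7 DPP minus the mean at 1 to 3 DPP, as 1 point per mouse, with filled circles for mouse 1 and open squares for mouse 2. Blue is WT and orange Tnfr2-/-. In 19 of 31 rows both blue points lie to the right of both orange points.

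Taken over both genotypes, 8 members rose from early to late and Mvk fell by 0.39 (SE 0.105, limma adjusted p = 0.0114), when 32.7% of all genes were called. Counting both directions, the members were thus not called more often than other genes. Their median change was 0.08, against 0.01 over all genes. The 8 were Acss2 (0.86), Lpin1 (0.60), Fdft1 (0.45), Mvd (0.43), Scd2 (0.43), Sc5d (0.39), Cyp51 (0.21) and Nsdhl (0.19), with adjusted p from 0.000351 to 0.0357. With the mouse as a fixed block Hmgcs1 (0.25, adjusted p = 0.0018), Stard4 (0.25, adjusted p = 0.0351), Insig1 (0.19, adjusted p = 0.0418) and Idi1 (-0.19, adjusted p = 0.0398) were added, among 36.7% of genes. Equal library sums gave 6 higher and 4 lower members, and turned the split over all genes from 2431 higher and 1993 lower to 1880 higher and 2587 lower. The count of 9 was 3 without all days of either Tnfr2-/- mouse, where 7 of the 9 calls were lost, 6 without all days of WT mouse 1 and 14 without all days of WT mouse 2. Fdft1 was 78.9, 95.8, 103.9, 128.5 and 158 at 1, 2, 3, 5 and 7 DPP in WT mouse 1 and 60.1, 82.3, 87.6, 102 and 108 in WT mouse 2. The Tnfr2-/- mice had 74.1, 106, 84.5, 124 and 101, and 79.3, 94.4, 91.3, 131.5 and 96.0. It was highest at 5 DPP in both Tnfr2-/- mice and at 7 DPP in both WT mice.

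The difference between the genotypes in their change from early to late was negative for 29 of the 31 members, the exceptions being Me1 and Acss2. The median was -0.31, against -0.03 over all genes. 19 members changed more upwards in both WT mice than in both Tnfr2-/- mice, where 24.1% of all genes did. Acat2, Srebf1, Acly, Fasn and Scd1 were higher late than early in both WT mice and lower in both Tnfr2-/- mice, 5 members in all, where 4.93% of all genes were. The interaction test in limma called no member and 0.148% of all genes, with 12 members and 1583 genes at an unadjusted p under 0.05. Blocking on the mouse, it called Scd2 (-0.69, SE 0.111, adjusted p = 0.0183) and Fasn (-0.81, SE 0.174, adjusted p = 0.0494) among 1.2% of genes. With libraries of 1 mouse treated as correlated it called Scd2 (adjusted p = 0.0372) but not Fasn (adjusted p = 0.0613), among 47 of 13539 genes. On 1 mean per mouse and phase it called none of the 13539 genes, with 5 members and 1553 genes at an unadjusted p under 0.05, and Scd2 and Fasn had adjusted p of 0.368 and 0.352.

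Scd2 at 1, 2, 3, 5 and 7 DPP was 291, 546, 1017, 1107 and 915 in WT mouse 1 and 306, 501.5, 864.5, 887 and 744 in WT mouse 2. Tnfr2-/- values were 438, 745, 886, 711 and 616.5, and 431, 635, 719, 692 and 627.5. It began lower and ended higher in WT, and the late libraries of the genotypes did not overlap. Fasn was 100.4, 146, 159.5, 179 and 145 in WT mouse 1 and 87.2, 182, 169, 156 and 139.5 in WT mouse 2. In Tnfr2-/- mice it was 167, 214, 163, 98.0 and 101, and 131, 179, 196, 118 and 133, so that every late Tnfr2-/- value lay below every late WT value.

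**Figure D4:**
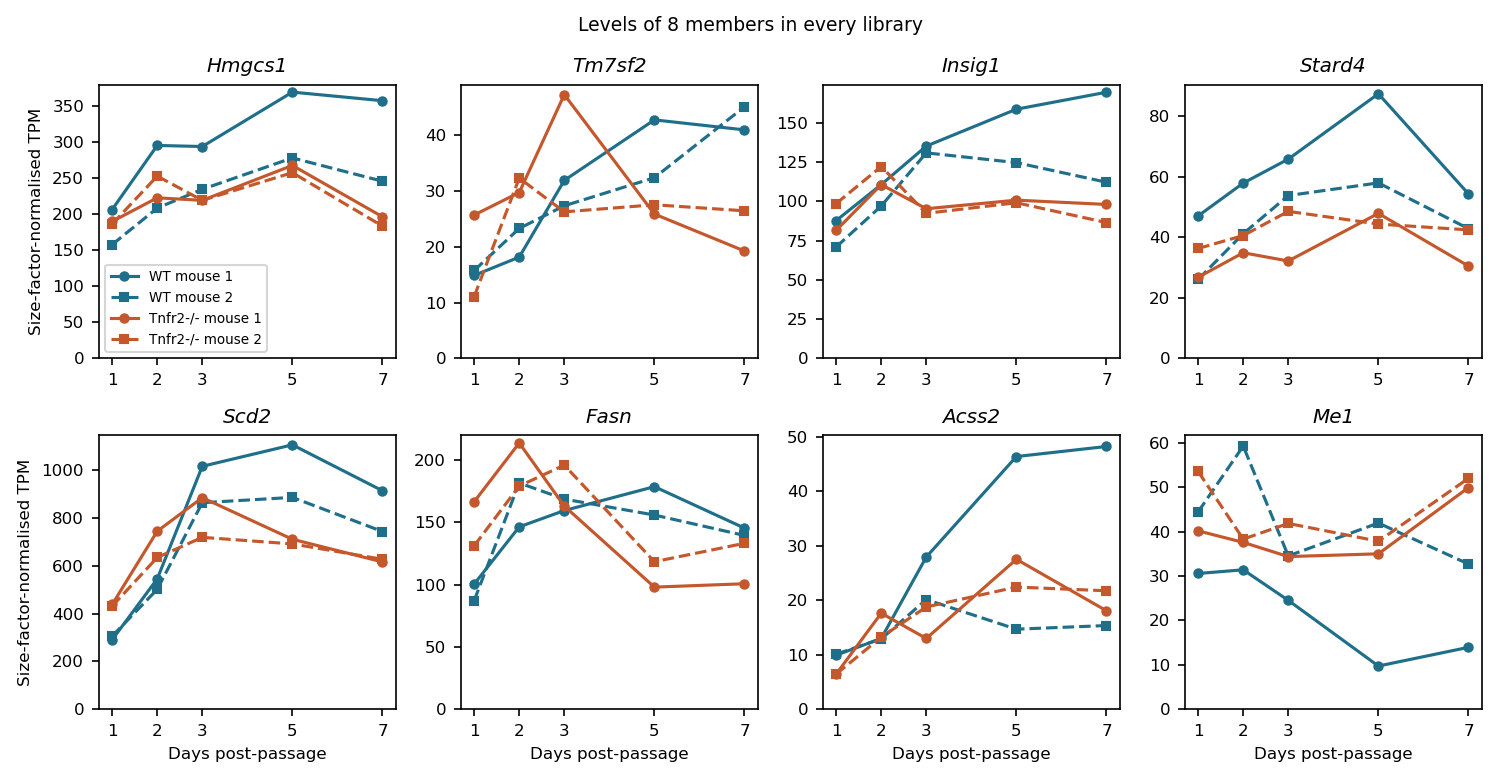
Each panel gives size-factor-normalised TPM of 1 gene against days post-passage, with 1 line per mouse (blue WT, orange Tnfr2-/-, mouse 1 solid, mouse 2 dashed). The genotypes cross between 1 and 5 DPP for Scd2 and Fasn, whereas WT mouse 1 stands alone for Acss2 at 46.3 and 48.2 and for Me1 at 9.70 and 13.9.

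Over the early days no member was called between the genotypes. Differences of Tnfr2-/- against WT over 1 to 3 DPP ran from -0.37 for Stard4, which carries sterol between membranes, to 0.35 for Fasn, with a median of 0.01. In limma 1.2% of all genes were called, and 2 members and 1746 genes had an unadjusted p under 0.05. By single day the median difference was positive at first (0.18 on day 1 and 0.10 on day 2) and then negative (-0.17 on day 3, -0.26 on day 5 and -0.41 on day 7), while over all genes it stayed between -0.05 and 0.01. The members lower in Tnfr2-/- numbered 6, 12, 24, 25 and 29 of 31 in the same order, where the share over all genes lay between 48.2% and 55.2%.

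In the late days 5 members were called in limma, all lower in Tnfr2-/-, when 6.45% of all genes were called and 2.64% called lower. Insig1 differed by -0.53 (SE 0.135, adjusted p = 0.0327) and Acly, the ATP citrate lyase that supplies acetyl-CoA, by -0.46 (SE 0.116, adjusted p = 0.0335). Scd2 differed by -0.45 (SE 0.106, adjusted p = 0.024), Sqle by -0.45 (SE 0.116, adjusted p = 0.0343) and Cyp51 by -0.32 (SE 0.0876, adjusted p = 0.0443). The Cyp51 call was lost in 18 of 20 fits that left out 1 library, and when limma treated libraries of 1 mouse as correlated (adjusted p = 0.0575). The 26 members not called ranged from -0.68 for Tm7sf2 to 1.01 for Me1, and Me1 and Sc5d were the ones above 0. Fasn had a difference of -0.46 with an adjusted p of 0.0505. 16 of 31 members and 3094 of 13539 genes had an unadjusted p under 0.05. In GRCm38 the 5 called genes lie with Insig1 at chr5:28071363-28078662 (plus strand), Acly at chr11:100476353-100528000 (minus strand), Scd2 at chr19:44293674-44306864 (plus strand), Sqle at chr15:59315077-59331192 (plus strand) and Cyp51 at chr5:4081145-4104746 (minus strand), and each value sums all annotated transcripts of the gene.

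By role, all 7 mevalonate genes had a late difference between -0.46 and -0.18 and none was called. From squalene to cholesterol 2 of 11 were called, and 1 of 4 regulators and 2 of 9 fatty acid genes were. In 8 members all 4 late Tnfr2-/- libraries lay below all 4 late WT libraries, where 6.07% of all genes did, and in none did they lie above, where 5.35% did. These were Fdps, Tm7sf2, Srebf1, Insig1, Acly, Fasn, Scd1 and Scd2. On day 7 alone, 21 members had each Tnfr2-/- value under each WT value, where 23.3% of all genes did.

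This comparison rests on 2 mice a genotype, each entering with 2 late libraries. On 1 mean per mouse limma called no member and no gene, with 10 members and 1859 genes at an unadjusted p under 0.05 and the lowest adjusted p among members 0.265. The count fell from 5 to 0 without the 5 or 7 DPP library of WT mouse 1 or any 1 of the 4 late Tnfr2-/- libraries, and was 10 without the 5 DPP library of WT mouse 2. Without all days of WT mouse 1 it was 0, with 12 members and 2683 genes at an unadjusted p under 0.05, and without all days of WT mouse 2 it was 13. Without a trend of variance on mean it was 0, and with equal library sums 9, all lower, while the split over all genes turned from 515 higher and 358 lower to 417 higher and 546 lower.

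**Figure D5:**
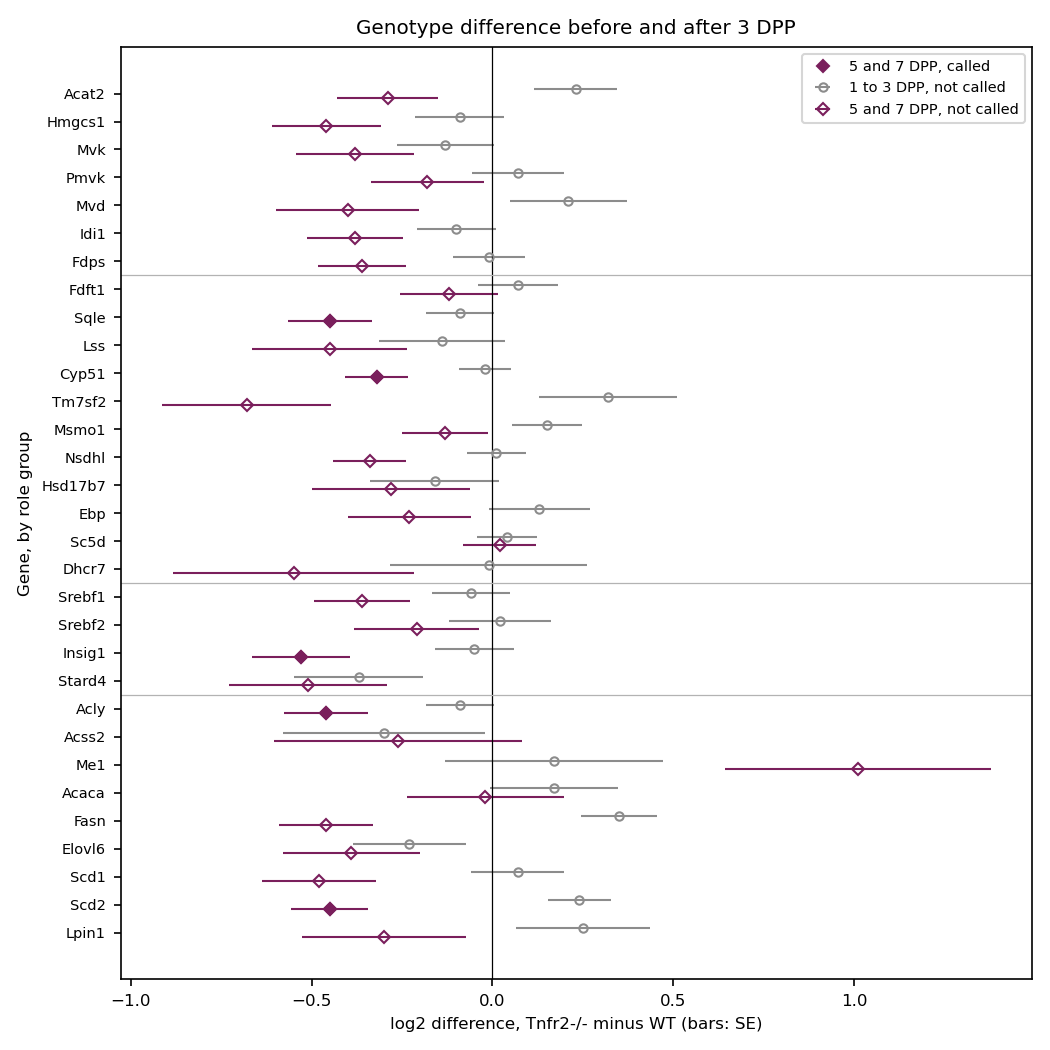
For each member the x axis gives the log2 difference of Tnfr2-/- minus WT, with bars of 1 SE, for 1 to 3 DPP (grey circles) and for 5 and 7 DPP (purple diamonds, filled where called). Lines separate the role groups. Purple symbols lie left of 0 in 29 of 31 rows, while grey symbols lie on both sides.

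Over all 5 days with the day as a term, Stard4 was the 1 member called, at -0.43 (SE 0.128, limma adjusted p = 0.0486), when 7.6% of all genes were called and 3.09% called lower. When limma treated libraries of 1 mouse as correlated, Stard4 was not called (adjusted p = 0.0842). Its values at 1, 2, 3, 5 and 7 DPP were 47.1, 58.0, 65.9, 87.5 and 54.4 in WT mouse 1 and 26.2, 41.2, 53.9, 58.0 and 42.9 in WT mouse 2. In Tnfr2-/- mice they were 26.9, 34.95, 32.2, 48.0 and 30.6, and 36.4, 40.6, 48.6, 44.4 and 42.5. WT mouse 1 was above every other mouse on each day, and the values of the other 3 mice overlapped. The call was lost in 16 of 20 fits that left out 1 library, without all days of 3 of the 4 mice, and on 1 mean per mouse, where 0.0517% of genes were called and 1522 genes but no member had an unadjusted p under 0.05.

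The genes of the SREBP factors themselves were not called. Srebf1 at 1, 2, 3, 5 and 7 DPP was 63.8, 69.5, 61.8, 83.1 and 62.2 in WT mouse 1, and 57.1, 65.3, 68.8, 66.6 and 74.3 in WT mouse 2. The Tnfr2-/- mice had 50.4, 81.7, 51.7, 60.0 and 56.9, and 69.7, 64.0, 56.6, 49.1 and 54.8. Its late libraries did not overlap between genotypes, with a difference of -0.36 that was not called (adjusted p = 0.124).

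Srebf2 was 115, 122, 115, 161 and 179 in WT mouse 1 and 80.6, 136, 145, 108 and 160.3 in WT mouse 2. Tnfr2-/- values were 99.4, 159.5, 144, 144 and 106, and 97.0, 106, 116, 129 and 140.2. The genotypes overlapped late, with a difference of -0.21 (adjusted p = 0.503). Neither gene was called in any of the 11 comparisons without the block.

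Insig1 was 87.8, 111, 135, 159 and 169.5 in WT mouse 1 and 71.0, 97.1, 131, 125 and 112 in WT mouse 2. In Tnfr2-/- mice it was 81.6, 111, 95.3, 101 and 98.1, and 98.6, 122, 92.4, 99.2 and 86.5. From 3 DPP on, every Tnfr2-/- value of Insig1 lay below every WT value.

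Among the mevalonate genes Hmgcs1 was 206.5, 295, 294, 369 and 357 in WT mouse 1 and 158, 208.5, 234.5, 278 and 246 in WT mouse 2. The Tnfr2-/- mice had 189.9, 223, 219, 268 and 196, and 186, 253, 219, 258 and 183.5. WT mouse 1 was highest on each day, and WT mouse 2 passed the Tnfr2-/- mice at 3 DPP. Mvd was 43.6, 54.95, 85.8, 108 and 97.8, and 22.9, 58.4, 67.3, 70.6 and 75.4 in WT mice 1 and 2. Its Tnfr2-/- values were 52.3, 75.9, 77.3, 77.7 and 54.95, and 37.7, 61.7, 64.4, 74.2 and 57.2, with a drop from 5 to 7 DPP in both.

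Tm7sf2, with the widest late difference among the sterol genes, was 14.9, 18.1, 31.9, 42.7 and 40.9 in WT mouse 1 and 15.7, 23.3, 27.3, 32.3 and 45.0 in WT mouse 2. Tnfr2-/- values were 25.7, 29.7, 47.2, 25.8 and 19.2, and 11.1, 32.3, 26.2, 27.5 and 26.4. Its highest Tnfr2-/- value came at 3 DPP in mouse 1. Lss, the lanosterol synthase, was 90.7, 137, 159.6, 135 and 74.7, and 54.6, 91.1, 133, 111 and 103 in WT mice 1 and 2. Its Tnfr2-/- values were 71.0, 129, 104, 92.1 and 83.7, and 97.5, 92.1, 85.5, 80.9 and 52.6, and its late ranges overlapped between genotypes.

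Dhcr7, which makes the last reduction to cholesterol, varied from 29.1 to 122.7 over the libraries. A non-coding transcript annotated to the gene ran from 0 to 76.7. Its main coding transcript ran from 17.4 to 54.7 and had early and late means of 26.4 and 43.0 in WT and 24.6 and 25.2 in Tnfr2-/-. These transcript values were taken after the gene's values were seen and were not tested. For the whole gene the late minus early change was 0.77 and -0.06 in WT mice 1 and 2. It was -0.64 and 0.27 in Tnfr2-/- mice 1 and 2, and the interaction was not called (limma adjusted p = 0.651). The gene's late difference was -0.55 with a limma p of 0.122 before and 0.354 after adjustment over all genes.

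A pair of fatty acid supply genes set WT mouse 1 apart. Acss2 was 9.89, 13.0, 27.9, 46.3 and 48.2 in that mouse and 10.1, 12.9, 20.1, 14.7 and 15.3 in WT mouse 2. In Tnfr2-/- mice it was 6.43, 17.6, 13.0, 27.5 and 18.0, and 6.43, 13.2, 18.7, 22.4 and 21.7, which lies between the WT mice late. Me1, which makes NADPH for fatty acid synthesis, was 30.6, 31.4, 24.5, 9.70 and 13.9 in WT mouse 1 and 44.5, 59.3, 34.5, 41.9 and 32.7 in WT mouse 2. In Tnfr2-/- mice it was 40.2, 37.6, 34.4, 35.0 and 49.9, and 53.6, 38.3, 41.85, 37.8 and 52.0. Late WT mouse 2 and the late Tnfr2-/- mice overlapped for Me1.

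The WT mice differed across the members as a whole. Mouse 1 was higher than mouse 2 late in 26 of 31 members, with a median of 0.31, where 51.1% of all genes were higher. Between the Tnfr2-/- mice the late median was -0.01 and 14 of 31 members were higher in mouse 1. Markers moved with the mouse too. The summed goblet cell markers at 5 and 7 DPP were 1229 and 956 in WT mouse 1 and 109.8 and 465 in WT mouse 2, against 53.3 to 175.5 in Tnfr2-/-. The sums for differentiated colonocytes were 965 and 904 in WT mouse 1 and 302 and 396 in WT mouse 2, against 323 to 374 in Tnfr2-/-. Of the markers in that sum Car1 and Krt20 reached 789 and 550, while Car4, Slc26a3 and Aqp8 reached at most 12.

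The 8 fibroblast markers summed to 1184 and 1778 in WT mouse 1 late, to 3194 and 3897 in WT mouse 2 and to between 3628 and 8424 in Tnfr2-/-. Of them Dcn (2.74, limma adjusted p = 2.16e-05) and Vim (1.69, adjusted p = 0.0122) were called higher in late Tnfr2-/- libraries, and none lower. Fabp4, the 1 adipocyte marker that could be tested, was also called higher (1.90, adjusted p = 0.0207). Of 5 colonocyte markers Car1 was called lower (-4.73, adjusted p = 0.0315). The other 4 were not called, and Krt20 was above 0 (0.56, adjusted p = 0.294). The 4 goblet cell markers tested were not called, at -2.54 to -1.76. Neither of the 2 leukocyte markers tested was called. The 6 proliferation markers all fell late in both genotypes, with medians of -0.80 in WT and -1.15 in Tnfr2-/-, and none differed by the test between genotypes late, with a median of -0.40. The 5 epithelial markers had no called difference between genotypes late. From early to late 3 of them were called higher in WT, among them Epcam (1.33) and Vil1 (1.09), against 2 higher and 1 lower in Tnfr2-/-. Goblet cell markers were called higher late in 4 of 4 tested in WT (median 3.70) and 3 of 4 in Tnfr2-/- (median 3.02). Late in WT, Car1 was called higher (3.69) and, of the fibroblast markers, Dcn lower (-0.90) and Thy1 higher (1.56). Late in Tnfr2-/-, 3 of 8 fibroblast markers were called higher and no colonocyte marker was called. The leukocyte marker Csf1r was called higher late in WT (1.17). The part of these markers in the lipid gene differences was not tested.

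Genes around the pathway gave a mixed picture, to be read against the 20.1% of all genes called late in WT, 20.3% called late in Tnfr2-/- and 6.45% called between genotypes late. Of the 4 SREBP processing genes, Insig2, a second INSIG, was called higher late in WT (0.51, limma adjusted p = 0.0459), and none of the 4 differed between genotypes late. Of 21 other lipid synthesis and isoprenoid genes 15 were tested. Late in Tnfr2-/- against WT, Gpam, the first acyltransferase of glycerolipid synthesis (-0.75, adjusted p = 0.0409), Fads2, a fatty acid desaturase (-0.71, adjusted p = 0.0252), and Elovl1, an elongase (-0.45, adjusted p = 0.0103), were lower, none was higher and 12 were not called.

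From early to late in WT, 3 of those 15 rose, where 11.6% of all genes were called higher, and none fell. They were Mid1ip1, which promotes acetyl-CoA carboxylase assembly (0.94, adjusted p = 0.000571), Dgat2, a triglyceride synthase (0.88, adjusted p = 0.0142), and Fads2 (0.51, adjusted p = 0.0333). In Tnfr2-/- none rose, and Tmem97, a sterol-responsive membrane protein (-0.57, adjusted p = 0.00219), and Elovl1 (-0.36, adjusted p = 0.00767) fell.

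Of 10 sterol efflux and esterification genes 9 were tested. Npc2, which binds cholesterol in lysosomes, rose late in both WT (0.65, adjusted p = 0.000548) and Tnfr2-/- (0.53, adjusted p = 0.00149). Abca1, a cholesterol exporter, rose in WT (0.81, adjusted p = 0.0433) and Abcg1, another, in Tnfr2-/- (0.88, adjusted p = 0.0204). Abcg1 was the 1 gene of this list called between genotypes late, being higher in Tnfr2-/- (0.98, adjusted p = 0.042). Its level was low, at 0.525 to 10.9 over the libraries, and its early difference was 0.65 (adjusted p = 0.202). Abca1 was not called between genotypes late (0.26, adjusted p = 0.64). Over all days 2 genes of this list were called, both higher, where 7.6% of all genes were called.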

How the data were processed

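RNA from 20 colonoid libraries was sequenced as stranded single-end mRNA libraries. Per the labels, the authors used CASAVA, kallisto and sleuth with build mm10, giving no versions there. The deposited signal values were read as kallisto TPM per transcript divided by a sleuth size factor per library, a unit inferred from these tools and the library sums, since no header states it. Columns of the authors' own sleuth test (p-values, q-values, a test score, variance estimates and a natural log mean) were not used. Of 113974 lines, 781 repeats were dropped, and 199 transcripts without a gene held at most 0.0989% of a library. Values were summed per gene symbol, log2-transformed after adding 1, and kept where the mean over 20 libraries was at least 1 (13539 genes). Differences were tested in R 4.3.3 with limma 3.58.1 (mean-variance trend, Benjamini-Hochberg adjustment over all 13539 genes, threshold 0.05) on 1 mean per genotype and day, except the genotype comparison over all days, which used day and genotype terms. Groups and mouse numbers came from the labels and the design text. Libraries of 1 mouse are the same animal on different days, so its number pairs the days (consensus within-mouse correlation 0.0929). No source used here says that mice of different genotypes with the same number belong together, and they were not paired.

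Signal coverage and the read depth of each library are not recoverable from these values, so no counting interval was given. The members, role groups, pathway and marker lists were chosen with earlier results of these data known. Every called member is named, with at most 10 per comparison given full statistics by largest change, and per-library values are printed for the members with the largest changes in each role group and for Srebf1, Srebf2 and Insig1. Per-library values of Fasn and Scd2 and the transcripts of Dhcr7 were added after their values were seen. Gene positions are from GENCODE M21 (GRCm38). Alternatives covered the pseudocount, the filter, scaling, the trend, Ensembl genes, blocks, mouse means and left-out libraries, and whole mice were left out as an alternative chosen after seeing the data. The fit was tested on simulated data.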

Additional observations from a re-analysis of the deposited data

Results flagged for a closer look

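Among the members, 2 genes were called different between the genotypes in their change from the early to the late days. The test was the interaction test of limma with the mouse as a fixed block, which called 163 of 13539 genes (1.2%). Fasn had a difference of -0.81 (adjusted p = 0.0494), since it fell in both Tnfr2-/- mice (-0.85 and -0.40) and was slightly higher late in both WT mice (0.28 and 0.09). Scd2 had a difference of -0.69 (adjusted p = 0.0183), with changes of 0.89 and 0.67 in WT and 0.00 and 0.18 in Tnfr2-/- mice. Without the block their adjusted p was 0.0801 and 0.0711, and on 1 mean per mouse it was 0.352 and 0.368. With libraries of 1 mouse treated as correlated, Fasn was not called (adjusted p = 0.0613) and Scd2 was (adjusted p = 0.0372).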

How the results depend on the processing

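The 2 mice a genotype limit every comparison, and the read depth of each library cannot be recovered from the values. Counts are of members called. For late against early in Tnfr2-/- (3 in the report) the count was 8 with equal library sums, 6 with mouse as a correlated block, 8 as a fixed block. For 2 against 1 DPP (1) it was 2 with a mean value of at least 5, 2 with median-ratio scaling, 5 with the correlated block and 7 with the fixed block. For 3 against 2 DPP (0) it was 1 with the fixed block. For 5 against 3 DPP (0) it was 1 with a mean value of at least 5, 1 with the correlated and 2 with the fixed block. For genotype over all days (1) it was 4 with equal sums and 0 with a pseudocount of 0.1, no filter, median-ratio scaling, no trend, the correlated block or means per mouse. For genotype in the late days (5) it was 9 with equal sums, 4 with the correlated block, which lost Cyp51, and 0 with no trend or means per mouse. For the interaction (0) it was 1 with the correlated and 2 with the fixed block. The cause of these changes was not tested.

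Mice of different genotypes were taken to share only a number, since no source used here relates them. With that number as a block the late genotype count was 8, 1 higher and 7 lower, and the differences of mouse 1 from mouse 2 correlated between genotypes at r = 0.13 across genes, which are not independent replicates. With the mouse as a fixed block, which pairs the days in the time comparisons and the interaction, no call was lost, and the calls gained are those printed in the report.

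Leaving out 1 library or all days of 1 mouse gave 3 to 14 called members for late against early in both genotypes, 2 to 13 in WT and 0 to 8 in Tnfr2-/-. It gave 0 to 3 for 2 against 1 DPP, 0 for 3 against 2 DPP, 0 to 1 for 5 against 3 DPP and 0 for 7 against 5 DPP. It gave 0 to 8 for genotype over all days, 0 for the early days, 0 to 13 for the late days and 0 to 3 for the interaction. With equal library sums the split of all called genes went from 69 higher and 34 lower to 49 and 52 for 2 against 1 DPP, from 164 and 131 to 132 and 173 for 5 against 3 DPP, from 611 and 418 to 424 and 722 for genotype over all days and from 104 and 58 to 79 and 75 for the early days. No difference of a named gene changed sign while called.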
